A study of Mus musculus with 3 samples.

Results

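Open chromatin was examined at 10 mouse genes of the interleukin 1 family and its receptors: Il1a, Il1b, Il1rn, Il18 and Il33, which encode the ligands and a receptor antagonist, and Il1r1, Il1r2, Il1rap, Il1rl1 and Il18r1, which encode the receptors. ATAC-seq marks accessible DNA with adapters placed by a transposase. Peaks of this signal were listed by the position of their highest point, the summit. A summit belonged to a gene when the nearest end of any protein-coding gene, within 50 kb, was an end of that gene. By this rule 114 of the 167038 listed summits belonged to the 10 genes. They fell on 9 of the 10, as Il18r1 had 0 summits.

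The cells were labelled mesenchymal stem cells in a project on heterotopic ossification, in which bone forms in soft tissue. Day 0, before injury, gave 1 library. Day 7 after injury gave 2, from cells labelled immobilized and non-immobilized. The sources used here do not state the strain, genotype, age, kind of injury, way of isolating the cells or any pooling of animals. With 1 library per group no difference has a replicate check, so no p-value is given. Ranges in parentheses after a share are its 95% binomial interval (exact, Clopper-Pearson), and they reflect counting error alone. They treat the counted items as independent, though several lie at the same gene.

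The libraries held 143818952 to 176119937 read pairs, of which 42.0% to 60.2% were duplicates. The lists held 51722 summits at day 0, 67404 in the immobilized and 47912 in the non-immobilized library, so their lengths did not follow read depth. Of 13 mesenchymal marker genes 13, 13 and 12 had a summit in lists cut to equal length (day 0, immobilized, non-immobilized), the one without being Lum. Markers of other cell types also had summits. Of 16 keratinocyte markers 7, 16 and 10 had 1 or more, with 11, 56 and 15 summits in all. Endothelial markers had 35, 50 and 79 summits, myeloid markers 13, 17 and 17, lymphoid markers 10, 14 and 7, and mast cell and basophil markers 4, 9 and 15. Of 16 myeloid markers 6, 9 and 8 had 1 or more summits. Spi1, Ptprc, Fcgr3, Cd14, Csf1r and S100a9 had some in all 3 lists, with 4, 5 and 4 at Spi1. Adgre1, Itgam, Lyz2, Ly6g, Cxcr2, Csf3r and Ccr2 had 0 in all 3 lists.

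Interleukin 1 alpha and beta are alarm and inflammatory cytokines that bind the same signalling receptor, IL1R1. The bound receptor recruits the accessory chain IL1RAP, and the pair signals through MyD88 and IRAK kinases to NF-kB. Signalling is held back by the antagonist IL1RN, which occupies IL1R1 without activating it, and by IL1R2, a decoy receptor that binds ligand and does not signal. IL-33, a nuclear alarmin of stromal and barrier cells, uses ST2 (encoded by Il1rl1) with the same accessory chain, and IL-18 uses IL18R1. Mesenchymal and fibroblastic cells are known to respond to interleukin 1 through IL1R1.

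The promoters with a summit are printed first, since they show where these genes were open at a start of transcription. Each window runs from 250 bases before to 50 bases after a start annotated by RefSeq, on assembly GRCm38.p6 (the assembly of mm10), 5′ to 3′ on the gene's strand. All 10 genes matched the RefSeq table, with 17 windows. Capitals mark matches to 6 motifs searched on both strands: for AP-1 TGANTCA, for NF-kB GGGA and CC with any 4 bases between them, for C/EBP TTGCNNAA, for PU.1 GAGGAAGT, for the TATA box the letters TATAAA and for GATA factors the letters AGATAA. No 2 of the matches found in the 17 windows overlap. Among all 32851 RefSeq windows of that length 7.81% held the AP-1 letters, 20.7% the NF-kB, 10.8% the C/EBP, 3.20% the PU.1, 13.6% the TATA box and 11.2% the GATA letters. Of the 17 windows 2 held the AP-1, 2 the NF-kB, 3 the C/EBP, 0 the PU.1, 6 the TATA box and 2 the GATA letters. A match is a description of the sequence and not a bound site, and its absence says only that the letters are not in this window.

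The accessory chain gene Il1rap had a summit in its window in all 3 libraries, and these were the best-ranked summits of all 10 genes. The window is chr16:26581455-26581754, plus strand, and 72.0% of its bases are G or C, against a median of 52.7% over all windows.
Il1rap: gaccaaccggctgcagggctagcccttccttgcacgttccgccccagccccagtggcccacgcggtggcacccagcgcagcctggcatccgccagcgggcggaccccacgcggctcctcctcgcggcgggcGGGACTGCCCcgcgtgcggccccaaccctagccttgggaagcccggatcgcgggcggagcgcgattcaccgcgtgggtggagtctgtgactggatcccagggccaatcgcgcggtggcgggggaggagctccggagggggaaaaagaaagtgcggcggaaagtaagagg
It holds an NF-kB match, GGGACTGCCC, from 119 to 110 bases before the start. The summits lay 49 (day 0), 50 (immobilized) and 34 bases (non-immobilized) before the start, between this match and the start.

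Il1r1, the signalling receptor, has 2 annotated starts, at chr1:40224830-40225129 and chr1:40266336-40266635, both on the plus strand. Both are shown because every library had a summit within 112 bases of each.
Il1r1, upstream start: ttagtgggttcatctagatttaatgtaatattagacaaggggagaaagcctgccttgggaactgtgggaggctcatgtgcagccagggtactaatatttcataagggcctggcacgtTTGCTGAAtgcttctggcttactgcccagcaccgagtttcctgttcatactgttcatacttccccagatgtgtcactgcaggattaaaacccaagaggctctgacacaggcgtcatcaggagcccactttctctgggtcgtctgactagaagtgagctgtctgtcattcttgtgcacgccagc
Il1r1, internal start: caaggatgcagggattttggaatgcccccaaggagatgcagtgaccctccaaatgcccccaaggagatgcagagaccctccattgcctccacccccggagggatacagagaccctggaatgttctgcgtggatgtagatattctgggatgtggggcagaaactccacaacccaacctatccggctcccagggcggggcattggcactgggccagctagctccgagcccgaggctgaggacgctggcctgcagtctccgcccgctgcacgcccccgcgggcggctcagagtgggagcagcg
At the upstream start the summits lay 6, 12 and 1 bases after it at day 0, immobilized and non-immobilized. At the internal start the immobilized summit lay 27 bases before it, and those of day 0 and the non-immobilized library 77 and 112 bases after it, just past the window. The upstream window holds a C/EBP match, TTGCTGAA, and the internal window none of the 6 motifs.

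The decoy receptor Il1r2 and the antagonist Il1rn had a summit in a window in some libraries only, and Il1b in none. Il1r2 (chr1:40085843-40086142, plus strand) had a summit 227 bases before its start at day 0 and 242 in the immobilized library. Il1rn (chr2:24336610-24336909, plus strand, the most upstream of 3 starts) had 1 only in the immobilized library, 79 bases before the start. The window of Il1b (chr2:129371090-129371389, minus strand) is shown for contrast.
Il1r2: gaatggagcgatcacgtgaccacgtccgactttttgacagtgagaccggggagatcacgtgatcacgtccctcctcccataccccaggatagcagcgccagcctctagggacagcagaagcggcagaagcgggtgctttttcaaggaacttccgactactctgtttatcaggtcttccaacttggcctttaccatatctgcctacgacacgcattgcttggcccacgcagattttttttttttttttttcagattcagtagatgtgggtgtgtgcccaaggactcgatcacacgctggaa
Il1rn: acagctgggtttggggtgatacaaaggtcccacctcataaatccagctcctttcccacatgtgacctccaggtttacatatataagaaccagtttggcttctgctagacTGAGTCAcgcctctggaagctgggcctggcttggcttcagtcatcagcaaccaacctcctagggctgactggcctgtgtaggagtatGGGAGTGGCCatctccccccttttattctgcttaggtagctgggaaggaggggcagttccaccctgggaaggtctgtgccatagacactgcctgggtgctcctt
Il1b: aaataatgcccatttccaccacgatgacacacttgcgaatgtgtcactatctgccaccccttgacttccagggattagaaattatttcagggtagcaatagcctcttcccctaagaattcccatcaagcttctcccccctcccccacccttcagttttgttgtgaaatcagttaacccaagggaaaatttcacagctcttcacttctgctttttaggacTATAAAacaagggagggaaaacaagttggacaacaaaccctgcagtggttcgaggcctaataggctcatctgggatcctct
The Il1rn window holds an AP-1 match, TGAGTCA, from 141 to 135 bases before the start and an NF-kB match, GGGAGTGGCC, from 54 to 45 bases before it. The immobilized summit lay between them. The Il1b window holds a TATA box 31 to 26 bases before the start, and the Il1r2 window holds none of the 6 motifs.

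Of the other windows, 1 held a summit: that of the upstream Il33 start had a weak one in the immobilized library, 99 bases before the start. Il18, which has 1 start on chromosome 9 at 50554700, had its summits 119, 158 and 157 bases after that start (day 0, immobilized, non-immobilized), beyond the window. Il1a, Il1rl1 and Il18r1 had none within 1 kb of an annotated start.

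Ranks are given as the percent position of a summit in its own deposited list, where 0% is the best score. As the lists differ in length, a difference in rank cannot be read as a change between libraries. Among the ligand genes, Il1b (chromosome 2, 129364569 to 129371164) had 2 summits at day 0, 6 in the immobilized and 0 in the non-immobilized library. None lay inside the gene. In the immobilized library 1 lay 2.34 kb upstream of the start, ranked 47.4%. Another 3 lay 36.7, 40.8 and 42.5 kb upstream, at 129407805, 129411973 and 129413623, ranked 28.5%, 38.0% and 27.5%. Downstream, 1 lay 4.15 kb past the gene end (68.2%) and 1 26.0 kb past it (36.8%), in the gap of 54.4 kb between Il1b and Il1a. The distant upstream group was the part of the locus with a day 0 signal: day 0 had summits at 129407881 and 129408645, ranked 90.2% and 57.6%. The non-immobilized summit nearest to any Il1b end was 33777 bases from it and belonged to Il1a.

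Il1a, which encodes interleukin 1 alpha (chromosome 2, 129299609 to 129310186), had 0, 2 and 1 summits at day 0, immobilized and non-immobilized. The day 7 libraries shared a position 20.8 to 20.9 kb upstream of the start, in the gap toward Il1b. There the immobilized summit (129330890) ranked 37.1% and the non-immobilized one (129330792) 78.7%. The other immobilized summit lay 10.3 kb upstream of the start and ranked 72.2%. The day 0 library had no summit for this gene.

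Il1rn, the antagonist (chromosome 2, 24336860 to 24351491), had 0, 3 and 0 summits. The summit in the promoter window above, at 24336781, ranked 33.9% in the immobilized list. The others lay inside the gene, 4.74 kb from its start (55.7%), and 1.30 kb upstream (97.7%). The nearest day 0 summit to an end of Il1rn was 101920 bases away and the nearest non-immobilized one 16098 bases.

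Il33, the alarmin (chromosome 19, 29925113 to 29960718), was open inside the gene in all 3 libraries. It had 6, 7 and 5 summits at day 0, immobilized and non-immobilized. The best-ranked lay 2.58, 2.56 and 2.55 kb downstream of the internal start, at 29948370, 29948353 and 29948343, ranked 15.7%, 11.2% and 13.6%. Another shared position, near 29940443, ranked 42.8%, 30.4% and 46.4%, and one near 29930443 ranked 35.4%, 44.1% and 72.5%. Outside the gene the libraries had no position in common. An immobilized summit 30.5 kb upstream ranked 22.7%, and the day 0 summits there lay 32.9 and 35.9 kb upstream, ranked 58.1% and 84.9%.

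Il18 (chromosome 9, 50554700 to 50581841), whose product acts on T and NK cells, had 1 summit per library, ranked 23.5%, 14.8% and 29.4%. The position also lies inside Bco2, an overlapping gene that encodes a carotenoid-cleaving enzyme, so it cannot be credited to Il18 alone. A further immobilized summit lay inside Il18 but was assigned to another gene by the nearest-end rule, so it is not counted here.

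**Figure D1:**
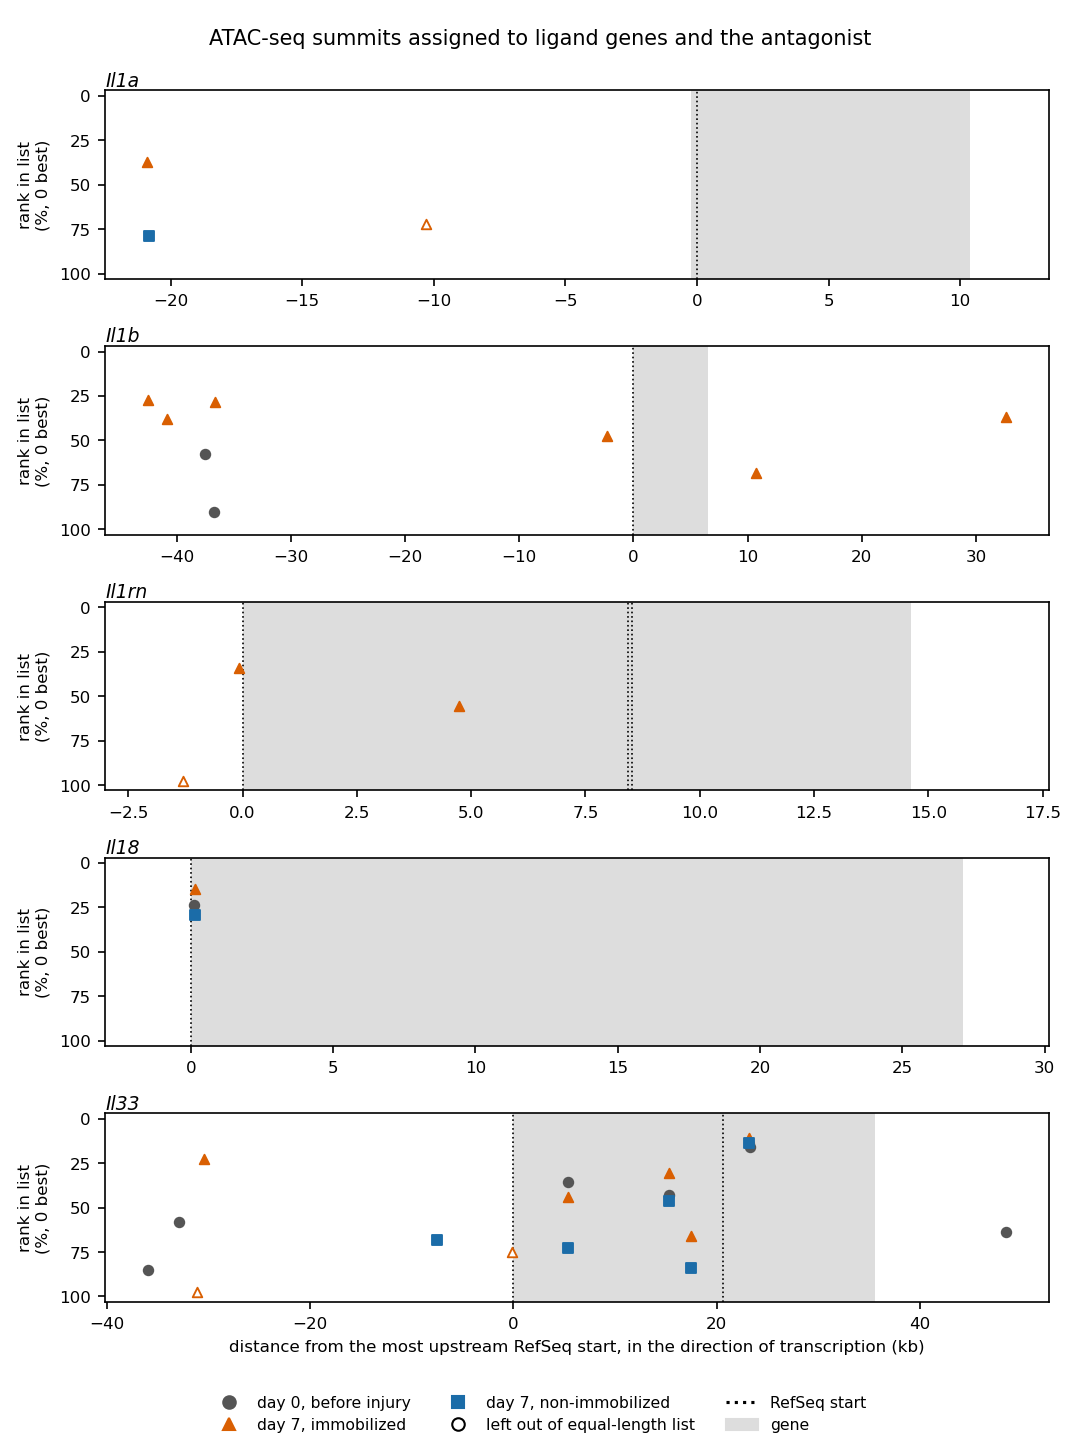
Summits of the lists as deposited for Il1a, Il1b, Il1rn, Il18 and Il33. The horizontal axis is the distance in kb from the most upstream RefSeq start in the direction of transcription, the vertical axis the rank of the summit in its own list in percent (0 at the top is best), grey spans the gene, dotted lines are RefSeq starts, and open symbols are summits left out of the equal-length lists. Il1b shows 6 immobilized summits, 2 from day 0 and 0 non-immobilized, while Il33 has positions inside the gene shared by all 3 libraries.

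The receptor genes clustered on chromosome 1 held 19 of 31, 30 of 55 and 20 of 28 summits. Il1r1 (chromosome 1, 40222480 to 40316201) had 10, 16 and 12 at day 0, immobilized and non-immobilized. Among 20665 protein-coding genes, 2.05%, 0.760% and 0.919% had as many or more, and the median gene had 1. The rule can give more summits to a long gene with wide gaps around it. Il1r1 spans 93722 bases, with a gap of 97.25 kb toward Il1r2 and 8.39 kb on the other side. These shares are not adjusted for that. The upstream start ranked 24.98%, 17.9% and 19.3%, and the internal start 22.3%, 24.0% and 21.8%, so both stood in the best 25% of each list. A position 8.82, 8.80 and 8.85 kb downstream of the internal start (near 40275431) ranked 44.9%, 27.7% and 17.4%. The region 50.6 to 50.8 kb before the upstream start (near 40174295), in the gap toward Il1r2, ranked 43.5%, 17.2% and 18.96%. At 40295028 and 40188305 the non-immobilized library had summits ranked 57.0% and 64.1%, and the immobilized library had its own within 100 bases, ranked 64.2% and 53.2%. Day 0 had none at either position.

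Il1r2, the decoy (chromosome 1, 40084692 to 40125230), had 8, 12 and 7 summits. Its best-ranked shared positions lay far from the start. That inside the gene near 40116641 ranked 21.3%, 22.4% and 24.6%, that 14.7 to 14.8 kb past the gene end (near 40140040) ranked 32.3%, 18.0% and 24.0%, and that 47.0 kb past it (near 40172197) ranked 35.8%, 16.9% and 27.7%. The start differed: the summit in the promoter window ranked 40.2% at day 0 and 43.0% in the immobilized library. The non-immobilized list had none within 8799 bases of it, the distance of its nearest summit. Further immobilized summits lay at 40084684 (41.1%), 8 bases outside the annotated gene, and at 40073887 (33.6%), 10.8 kb from it, with none in the other lists within 1 kb.

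Il1rap (chromosome 16, 26581509 to 26730128) had 3, 6 and 1 summits. The promoter summit ranked 8.09%, 3.85% and 4.18% and was the only one of the non-immobilized library. Inside the gene the immobilized library had summits 9.39, 15.6, 26.5 and 44.5 kb downstream of the start, ranked 60.3%, 59.2%, 47.4% and 78.0%. Day 0 shared the second of these (58.2%) and had 1 near the far end of the gene, at 26722596 (91.3%). A further day 0 summit inside the gene, at 26669134 (81.8%), lay 61.0 kb from the nearer gene end. The 50 kb limit left it out of the count.

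Il1rl1, which encodes ST2, a receptor known from mast cells, innate lymphoid cells and regulatory T cells (chromosome 1, 40404864 to 40465418), had 1, 2 and 1 summits. The shared one lay 5.39, 5.30 and 5.29 kb downstream of the nearer start and ranked 21.6%, 12.9% and 25.3%. The immobilized library had a second 11.4 kb outside the gene, at 40393441 (31.4%). Il18r1 (chromosome 1, 40465552 to 40500854) begins 134 bases past the end of Il1rl1 and had 0 summits in its 35303 bases in each library. The nearest summit to either of its ends was 20530 to 20628 bases away and was the one inside Il1rl1. Its neighbour Il18rap, the IL-18 accessory receptor, had 0 as well.

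**Figure D2:**
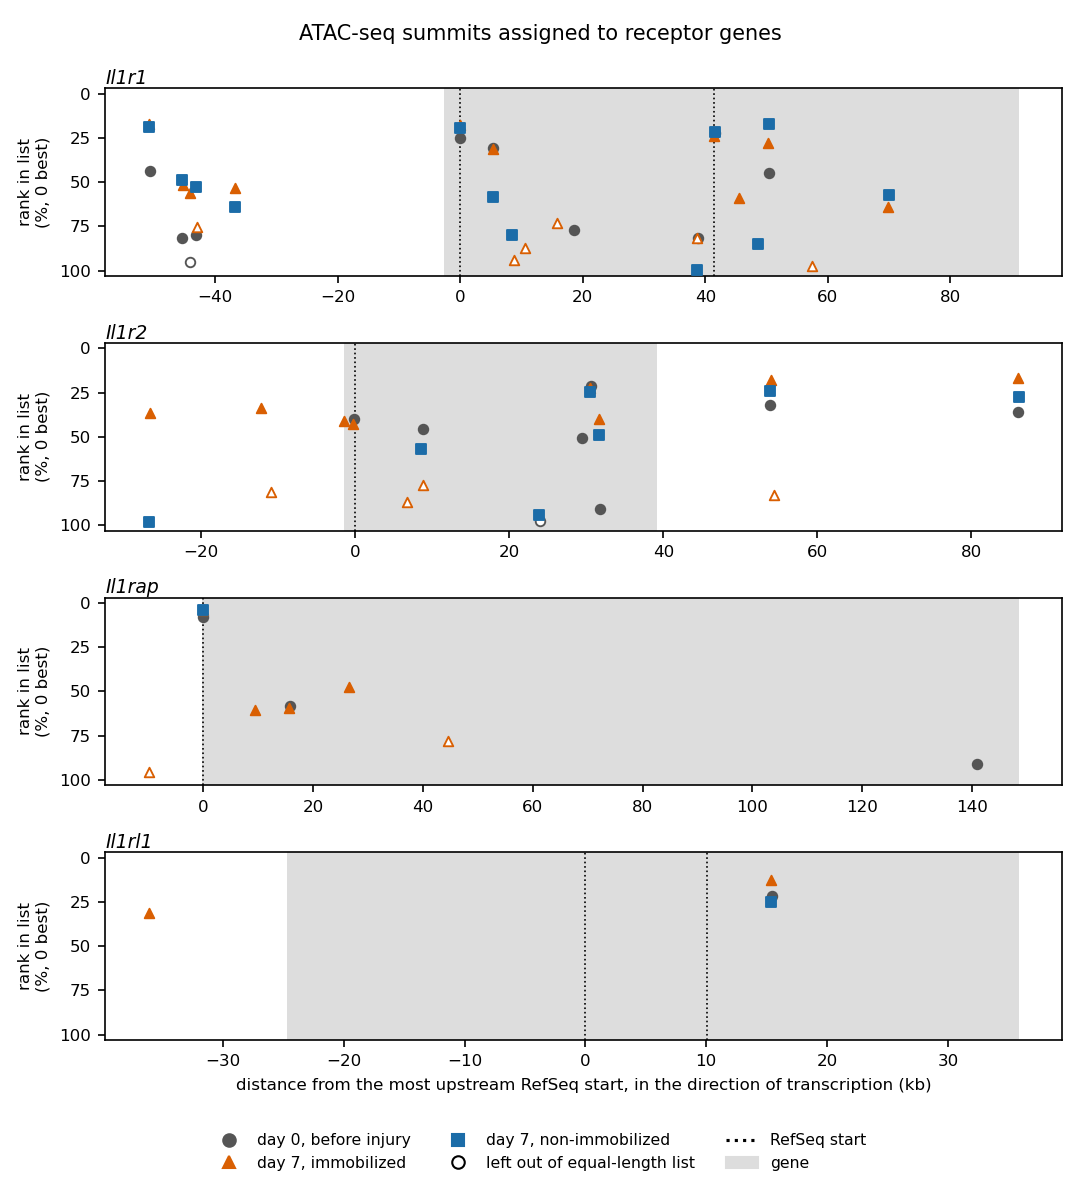
Summits of the lists as deposited for Il1r1, Il1r2, Il1rap and Il1rl1. The horizontal axis is the distance in kb from the most upstream RefSeq start in the direction of transcription, the vertical axis the rank in the summit's own list in percent (0 at the top is best), with grey for the gene, dotted lines for RefSeq starts and open symbols for summits left out of the equal-length lists. Both Il1r1 starts and the Il1rap start carry a summit of each library, and Il1rap has 1 non-immobilized summit in all.

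As a set, few of the summits lay within 1 kb of a gene end. Of the 31, 55 and 28 summits at day 0, immobilized and non-immobilized, 2, 5 and 2 lay within 1 kb of an end. These shares were 6.45% (0.791 to 21.4), 9.09% (3.02 to 19.95) and 7.14% (0.877 to 23.5). Over all summits within 50 kb of a protein-coding gene end the shares were 31.8%, 26.7% and 33.3%. An end in the gene table is not always an annotated start. The summits at the Il1r1 starts lay 2.60 to 2.61 kb and 44.1 to 44.2 kb from a gene end. Those in the Il1r2 promoter window lay 1.16 and 1.17 kb from one. All of these count as farther than 1 kb, so the shares do not measure distance to a start. Median ranks, 45.7%, 47.4% and 50.9%, lay near those of all such summits, 45.1%, 46.1% and 45.6%. The members closest to the limit of 50 kb, both at Il1r1, lay 48.2 kb from the gene end and ranked 17.2% and 18.96%. Beyond the limit 1 summit had an end of these genes as its nearest. It lay inside Il1rap at day 0, 61.0 kb from the gene end, and ranked 81.8%.

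To compare libraries, each list was reduced to its 47912 best-scoring summits. Summits were widened by 250 bp on each side, and windows that overlapped between libraries were merged into regions. A library called a region when 1 of its kept summits lay there, and a region not called may still be open. The 10 genes had 53 regions, of which 16 (30.2%, 18.3 to 44.3) were called in all 3 libraries, against 48.4% of all 51407 regions near a protein-coding gene. Among regions over 1 kb from a gene end the shares were 14 of 49 (28.6%, 16.6 to 43.3) and 38.2%. The immobilized library alone held 15 regions (28.3%, 16.8 to 42.3), against 11.1% of all regions. Over 1 kb from a gene end it alone held 13 of 49 (26.5%, 14.9 to 41.1), against 13.7%. The 49 regions include those at both Il1r1 starts, 2612 and 44218 bases from a gene end and called in all 3 libraries. They also include the Il1r2 promoter region, 1174 bases from one, called at day 0 and in the immobilized library. The set is therefore not free of promoter regions. Of all 53 regions day 0 alone held 7 (13.2%, 5.48 to 25.3, against 12.2% of all regions). The non-immobilized library alone held 4 (7.55%, 2.09 to 18.2, against 10.2%). Both intervals included the share of all regions.

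The regions called in all 3 libraries belonged to the receptors, Il33 and Il18. Il1r1 had 6 regions called in all 3 libraries of 15, Il1r2 4 of 11, Il33 3 of 9, Il1rap 1 of 5, Il1rl1 1 of 2, and Il18 its single one. Over all regions near a protein-coding gene the share was 48.4%. For Il1a, Il1b and Il1rn, which had 1, 7 and 2 regions, none was called in all 3 libraries. The regions called in the immobilized library alone were 5 at Il1b, 2 each at Il1rn, Il1r1, Il1r2 and Il1rap, and 1 each at Il1rl1 and Il33. Their median rank in the immobilized list was 41.1%, against 55.9% for all 5707 such regions near genes. The 4 regions of the non-immobilized library alone had a median rank of 82.4%, against 80.1%, and the 7 of day 0 alone 63.6%, against 71.9%.

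**Figure D3:**
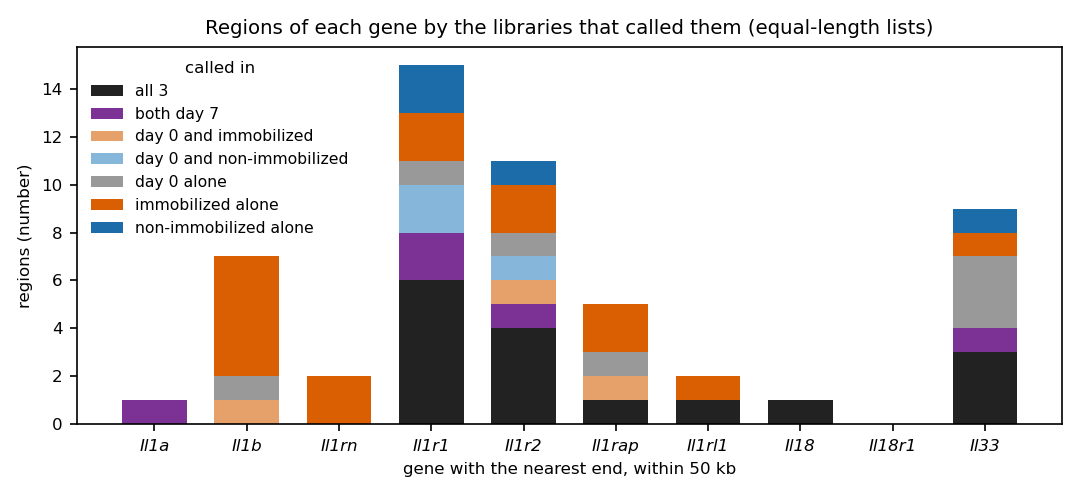
Number of regions (vertical axis) of each gene (horizontal axis), stacked by the libraries that called them, in lists of equal length. Il1r1 (15 regions) and Il1r2 (11) contain regions called in all 3 libraries, Il1b (7) and Il1rn (2) none, and Il18r1 has 0 regions.

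The first comparison set the day 7 libraries against each other, as the labels imply, to ask how immobilization went with accessibility. Of 46 regions called in either library, 18 were called only in the immobilized one (39.1%, 25.1 to 54.6), against 18.3% of all 45151 regions near a protein-coding gene. Only in the non-immobilized library were 7 (15.2%, 6.34 to 28.9), against 17.1%. By gene, Il1b had 6 regions on the immobilized side and 0 called in the non-immobilized library. Il1rap had 3 on the immobilized side, 0 on the other and 1 shared, Il1r2 had 3, 2 and 5, Il1rn 2, 0 and 0, and Il1rl1 1, 0 and 1. Il1r1 went the other way in these lists, with 2, 4 and 8, but not in the lists as deposited. Il33 had 1, 1 and 4. Thus 5 genes leaned to the immobilized library, 1 to the non-immobilized, 3 were even and 1 had no region. Of all 20665 protein-coding genes 3629 leaned to the immobilized library, 3327 to the non-immobilized, 7856 were even and 5853 had no region. The median difference per gene, non-immobilized minus immobilized, was -0.5, against 0 over all protein-coding genes. In the lists as deposited the counts were 29 (50.9%, against 31.8% of all regions) and 3 (5.26%, against 7.68%).

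Il1b carried 6 of the 18 regions on the immobilized side. Without Il1b 12 of 40 regions were called only in the immobilized library (30.0%), and the interval, 16.6 to 46.5, included the 18.3% of all regions. Among 19 regions with a summit in the best 23956 of the immobilized list, 6 had none in the whole non-immobilized list (31.6%, 12.6 to 56.6), against 4.38% of all such regions near a protein-coding gene. In the opposite sense it was 0 of 14 (0 to 23.2), against 2.36%. The list searched for a partner is longer there (67404 summits against 47912), which by construction leaves fewer regions without one. The 6 were the regions at 129407805 and 129413623 (Il1b), 24336781 (Il1rn), 40073887 (Il1r2), 40393441 (Il1rl1) and 29894658 (Il33), none of them at Il1r1 or Il1rap. This selection was added after the data were seen.

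Keratinocyte markers leaned to the immobilized library too. In the same comparison 41 of their 56 regions were called there alone and 1 in the non-immobilized list alone. Krt5, Krt14, Krt15, Krt17, Dsg3 and Dsc3, which encode keratins and junction proteins of keratinocytes, had 0 summits at day 0 and in the non-immobilized list. All 16 markers had at least 1 in the immobilized list. Myeloid markers were even, with 4 and 4 regions, lymphoid markers had 7 and 1, mast cell and basophil markers 1 and 5, and endothelial markers 10 and 37 (immobilized, non-immobilized). Mesenchymal markers, of the labelled cell type, had 12 and 19 in the same order. The part of any of these cells in the interleukin 1 regions was not tested. In a bulk library more cells of a type and more open chromatin per cell cannot be told apart.

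Next, the immobilized library was set against day 0. Of 49 regions called in either, 20 were called only at day 7 (40.8%, 27.0 to 55.8), against 21.6% of all 46153 regions, and 10 only at day 0 (20.4%, 10.2 to 34.3), against 18.9%. Without Il1b the day 7 share was 15 of 42 (35.7%, 21.6 to 52.0), and that interval included 21.6%. Il1b had 5 on the day 7 side, 1 on the day 0 side and 1 shared. Il1rn had 2, 0 and 0, and Il1a 1, 0 and 0, so neither was called at day 0. Among receptors Il1r1 had 4, 3 and 6, Il1r2 3, 2 and 5, Il1rap 2, 1 and 2, and Il1rl1 1, 0 and 1. Il33 had 2, 3 and 3, the one gene that leaned to day 0 in these lists, but in the lists as deposited it leaned to day 7, and the lean of Il1r2 turned to day 0 with the best 23956 summits of each list. Of the keratinocyte marker regions 47 were of day 7 alone and 3 of day 0 alone, and the counts were 11 and 32 for mesenchymal, 27 and 12 for endothelial, 6 and 0 for mast cell and basophil, 6 and 2 for myeloid and 7 and 3 for lymphoid markers. Of the 19 regions from the best 23956 immobilized summits, 5 had none in the whole day 0 list (26.3%, 9.15 to 51.2), against 7.73% of all such regions, and of 16 such day 0 regions 0 had none in the longer immobilized list (against 2.93%). In the lists as deposited the counts for the interleukin 1 genes were 31 of 62 (against 32.0% of all regions) and 8 (12.9%, against 11.7%).

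Last, the non-immobilized library was set against the same day 0 library, so both comparisons with day 0 share it, as each library enters 2 of the 3 comparisons. Here 9 of 38 regions were called only at day 7 (23.7%, 11.4 to 40.2), against 20.8% of all 45700 regions, and 10 only at day 0 (26.3%, 13.4 to 43.1), against 19.3%. Both intervals included the share of all regions. Il1r1 had 4 on the day 7 side, 1 on the day 0 side and 8 shared. Il1b had 0, 2 and 0, and Il1rap 0, 2 and 1. Il1r2 had 2, 2 and 5, Il33 2, 3 and 3, and Il1a 1, 0 and 0. Of 16 regions from the best 23956 summits at day 0, 1, that at the Il1r2 start, had no summit in the whole non-immobilized list (6.25%, 0.158 to 30.2), near the 5.17% of all such regions. In the opposite sense it was 0 of 14 (0 to 23.2), against 8.23%. In the lists as deposited the counts were 8 (20.5%, against 18.5%) and 11 (28.2%, against 21.9%). Mesenchymal markers had 9 regions of day 7 alone and 23 of day 0 alone, endothelial markers 54 and 12, mast cell and basophil markers 10 and 0, keratinocyte markers 7 and 3, myeloid markers 6 and 2 and lymphoid markers 0 and 2.

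**Figure D4:**
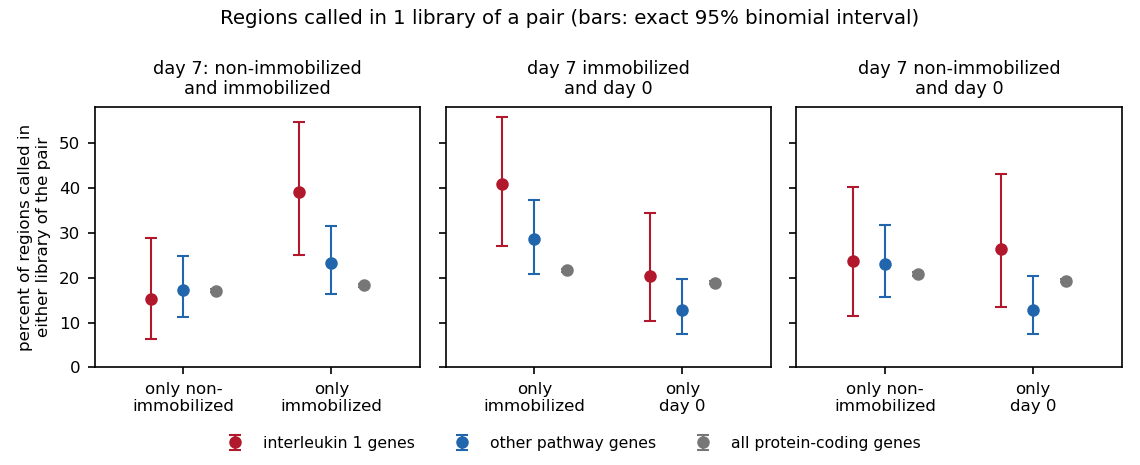
Percent of the regions called in either library of a pair that were called in only 1 of them (vertical axis), for the 10 interleukin 1 genes, 42 other genes of the pathway and all protein-coding genes. Bars are 95% binomial intervals (exact). The interleukin 1 genes lie at 39.1% and 40.8% on the immobilized side of its 2 pairs, above 18.3% and 21.6% of all regions. Their intervals include the share of all regions elsewhere. Without Il1b (not drawn) the 2 shares were 30.0% (16.6 to 46.5) and 35.7% (21.6 to 52.0), and both intervals included the share of all regions.

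Of 43 further genes of the pathway, 42 were found in the gene table, Il36a, Il36b and Il36g under the older symbols Il1f6, Il1f8 and Il1f9. In the comparison of the day 7 libraries they had 31 of 133 regions only in the immobilized library (23.3%, 16.4 to 31.4) and 23 only in the non-immobilized one (17.3%, 11.3 to 24.8), near the 18.3% and 17.1% of all regions. On the immobilized side 11 of the 42 genes had more and on the other 8, against 3629 and 3327 of all 20665 genes. The median difference was 0, as over all genes. Toward the immobilized library leaned Ptgs2, which encodes the inducible cyclooxygenase (3 only there, 0 only in the other, 2 in both), Nfkb1, a subunit of NF-kB (5, 1 and 5), the kinase gene Irak2 (3, 1 and 7) and Tnfaip3, an inhibitor of NF-kB (3, 1 and 6). Toward the non-immobilized library leaned Tab1, an adaptor of the kinase TAK1 (3 only there, 0 and 1), Nos2 (2, 1 and 2), Sigirr, an inhibitory receptor (2, 1 and 1), and Nfkbiz, an NF-kB cofactor (3, 2 and 2).

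Against day 0, in the immobilized library 36 of 126 regions were called only at day 7 (28.6%, 20.9 to 37.3, against 21.6%) and 16 only at day 0 (12.7%, 7.44 to 19.8, against 18.9%). In the non-immobilized library the counts were 27 and 15 of 117 (23.1%, 15.8 to 31.8, against 20.8%, and 12.8%, 7.36 to 20.3, against 19.3%). Each of these intervals included the share of all regions. Response genes of interleukin 1, such as Il6, Cxcl1 and Ptgs2, had 13 of 35 regions in the immobilized library alone (37.1%, 21.5 to 55.1, an interval that includes 21.6%) and 3 at day 0 alone. Signalling genes had 17 and 11 of 72, processing genes 2 and 0 of 8, and other ligands and receptors 4 and 2 of 11. In the non-immobilized comparison the counts were 9 and 5 of 31 for response genes, 12 and 8 of 67 for signalling, 2 and 0 of 8 for processing and 4 and 2 of 11 for other ligands and receptors. Irak2 had 4 on the immobilized side, 0 on the day 0 side and 6 shared, Tnfaip3 3, 1 and 6, Cxcl5, a neutrophil chemokine, 2, 1 and 0, and Il1rl2, the IL-36 receptor gene between Il1r1 and Il1rl1, 2, 1 and 4. In the non-immobilized library Nfkb1 leaned to day 0 (1, 5 and 5 shared), and Cxcl2 (2, 1 and 0), Ikbkb (2, 1 and 1), Il1rl2 (2, 1 and 4) and Nos2 (2, 1 and 2) leaned to day 7.

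Over the 7 possible patterns of calls in the 3 libraries, the genes most like Il1r1, the gene with the most regions, were Vmp1, with a summed absolute difference of 2 regions, and Arhgap26, Arid5b, Cyth1 and Fam53b, with 3 each. They had 12 to 18 regions, against 15 at Il1r1.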

How the data were processed

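Omni-ATAC libraries of 3 groups, 1 each, were analysed from the deposited summit lists. Per the submitters' processing notes, the build was mm10 and the tools included MACS2 2.1.2, Bowtie2 2.3.4.1, edgeR 3.26.5, bedtools 2.28.0, SAMtools 1.2, Trim Galore, cutadapt, FastQC and Picard, with no role given. The sources used here do not state a transposase shift of reads, read filters or a peak cutoff. The authors made and deposited 1 summit list per library, with a score taken as a −log10 value (p or q is not stated). The score served only to rank summits within a list. Per the file headers, the run statistics give reads as counts, duplicates as a fraction (under a header that says percent) and aligned reads as a percent (89.9% to 92.5%). The lists cover chromosomes 1 to 19.

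Cutting to 47912 summits left out 3810 at day 0 and 19492 in the immobilized library, and the lowest scores kept were 4.00, 6.61 and 1.33 (day 0, immobilized, non-immobilized). A region's gene was the protein-coding one whose end lay closest to its best-ranked summit, up to 50 kb away. Gene ends came from a RefSeq table without exons, so exons and introns were not analysed here. Positions count from 1, and each summit was widened by 250 bp on both sides. The members and all gene lists were chosen with earlier results of these data known. All 10 genes are named, and of the pathway list up to 4 genes per pair and direction with at least 3 one-library regions and the largest difference over the square root of the sum. Summits are named where best ranked of a gene, within 1 kb of a gene end, or where a comparison turns on them, the last chosen after their values were seen. Alternatives used whole lists, the 23956 best summits per list (50% of the shortest), windows of 100 and 500 bp, limits of 10 and 100 kb, and the gene around a summit. Chosen after seeing the data were the best 50% of a list absent from the whole other list, and leaving out Il1b. Region building, assignment and motif search were tested on simulated data. Work was done in Python 3.11.15 with pandas 2.3.3, numpy 2.4.6, matplotlib 3.10.9 and scipy 1.17.1.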

Additional observations from a re-analysis of the deposited data

Results flagged for a closer look

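In equal-length lists Il1b and Il1rap went opposite ways from day 0 in the day 7 libraries. For Il1b the number of regions called only at day 7 minus only at day 0 was 4 in the immobilized and -2 in the non-immobilized library. For Il1rap it was 1 and -2. The opposite signs were lost for both genes, with 1 or both values at 0, with the best 23956 summits per list and within 10 kb, and for Il1rap also within 100 kb and with the gene around a summit. They were also lost for both among the best summits absent from the whole other list. Each value rests on 1 library per group and both share the day 0 library, so the difference was not tested.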

How the results depend on the processing

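With the lists as deposited, where the immobilized list is the longest, the first-named library's share of the regions called in 1 library of a pair was 9.38% for the interleukin 1 genes in non-immobilized against immobilized, in place of 28.0% in equal-length lists. For other pathway genes it was 17.5% in place of 42.6%, and 84.1% in place of 69.2% for immobilized against day 0. Over all protein-coding genes the equal-length shares were 48.3% for non-immobilized against immobilized and 53.4% for immobilized against day 0. As deposited, the day 7 pair had 4143 regions of the non-immobilized list alone and 17177 of the immobilized list alone. Immobilized against day 0 had 18039 and 6625. The shares over all genes thus moved toward the immobilized library too. With the 23956 best summits the pathway share reversed to 60% between the day 7 libraries, and was 82.4% in place of 64.3% for non-immobilized against day 0. With regions of the best 23956 summits absent from the whole other list, the interleukin 1 shares were 0% (0 of 6), 100% (5 of 5) and 0% (0 of 1) for non-immobilized against immobilized, immobilized against day 0 and non-immobilized against day 0, and the pathway shares against day 0 were 83.3% in both. Over all protein-coding genes these shares were 35.2%, 72.7% and 61.8%, and the whole lists searched differ in length (67404 immobilized, 51722 day 0, 47912 non-immobilized). Without Il1b the share for non-immobilized against day 0 passed from 47.4% to 52.9%. Within 10 kb the interleukin 1 share was 12.5% (1 against 7) in place of 28.0% between the day 7 libraries and 25% (1 against 3) in place of 47.4% for non-immobilized against day 0. No share over all genes is given here within 10 kb or with both lists cut to 23956 summits. In equal-length lists it was 51.9% for non-immobilized against day 0. Window widths, the limit of 100 kb and gene assignment moved no share by over 1.5 times. Single genes reversed as follows: Il1r1 to -4 (non-immobilized minus immobilized, 2 in equal-length lists) in lists as deposited, Il1r2 to -1 (immobilized minus day 0) with the best 23956, Il33 to 1 (immobilized minus day 0) in lists as deposited and in the best summits absent from the other list, and Il33 to 1 (non-immobilized minus day 0) within 10 kb. The number of summits fell to 10, 19 and 9 within 10 kb and to 16, 19 and 14 among the best 23956 (day 0, immobilized, non-immobilized), by construction. Elsewhere the cause was not tested. No paired analysis was possible because each group has 1 library. Libraries were not replicated, so the spread of these small counts between samples is unknown.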
